A study of Mus musculus with 29 samples.

Results

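The comparison set 5 atrial RNA libraries of NaV1.5 transgenic mice on a high-fat diet (NaV1.5_HFD) against 4 of control mice on the same diet (Ctrl_HFD), 9 of the 29 libraries of the series, chosen by their labelled genotype and diet. All 9 came from atria of male mice that had eaten the high-fat diet for 4 weeks, starting at 5 weeks of age. Another 8 libraries from regular-diet mice (4 Ctrl_RD and 4 NaV1.5_RD) entered the same fit to estimate the spread. The labels give neither the promoter or sequence of the transgene nor the strain. They also do not state that each library is a mouse of its own, and the p-values then reflect the spread between these samples alone, which may be technical. Ctrl_HFD replicate 4 is labelled batch 2 and the other 8 libraries batch 1. With batch in the model that library carries no weight in the fitted difference, which therefore rests on 5 against 3 libraries, and its values serve as a check.

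NaV1.5 is the pore-forming subunit of the main cardiac sodium channel and carries the fast inward current that starts the action potential in atrial muscle. The channel closes within milliseconds, and sodium current that persists during the action potential prolongs it and loads the cell with sodium and then calcium. Whole atria hold muscle cells, fibroblasts, endothelial cells, macrophages, nerve endings, epicardium and the sinoatrial node, so a difference in one cell type's genes can come from fewer cells or from less RNA per cell, and these cannot be told apart in bulk tissue.

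Levels are given as CPM, counts scaled to a common library total and, by TMM, for library composition, and differences as NaV1.5_HFD minus Ctrl_HFD on the log2 scale. The 9 libraries held 16159281 to 33061018 counts, of which genes of the mitochondrial genome took 20.39 to 26.58% in Ctrl_HFD and 20.4 to 25.27% in NaV1.5_HFD. A count of 0 allows a level of up to 0.091 to 0.186 CPM (3 counts), which covers counting error only. The first principal component carried 20.7% of the variance and placed all 4 controls (-32.86 to -8.01) below all 5 NaV1.5 libraries (-1.24 to 26.64). Cdh6 had the largest loading on it, and the next 8 held the 6 records of the following paragraph, which do not follow the genotype labels throughout.

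**Figure D1:**
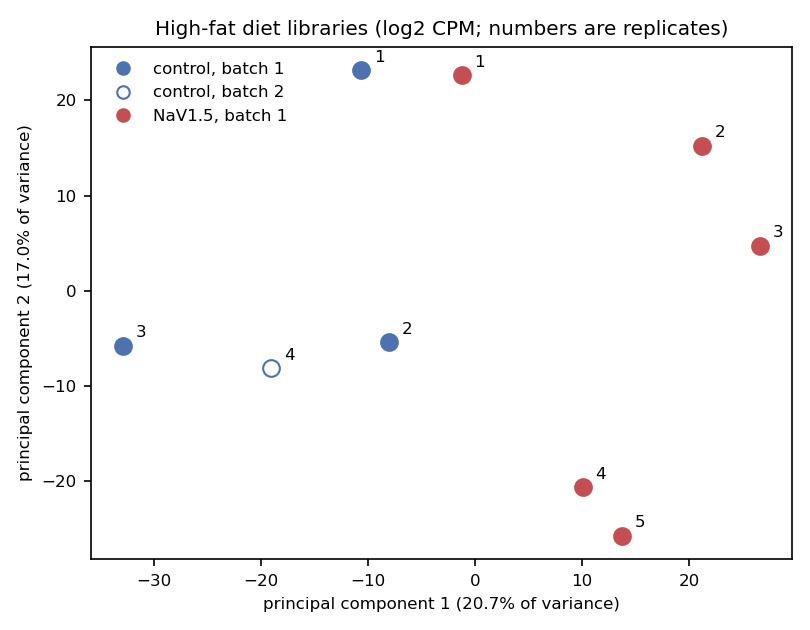
First and second principal components of log2 CPM for the 9 high-fat libraries, one point per library numbered by replicate. The 4 control libraries lie at -8.01 or lower on the first axis and the 5 NaV1.5 libraries at -1.24 or higher, and the control of batch 2 lies among the other controls.

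Some libraries stood apart in a way that crossed the genotype labels. H2-Ea, a class II histocompatibility gene that is silent in mice of the b haplotype such as C57BL/6, was at 0.974, 1.69 and 3.49 CPM in Ctrl_HFD replicates 1, 3 and 4 and at 0.63 CPM in NaV1.5_HFD replicate 1. It had 0 counts in Ctrl_HFD replicate 2 and in the other 4 NaV1.5_HFD libraries. Gm10263, Hmga1b, Atp6v0c-ps2 and Rnps1-ps, which lie on chromosomes 13, 11, 6 and 6, were high and near 0 in the same libraries, with Gm10263 at 7.2 to 8.69 CPM where high and at most 0.248 CPM in the other high-fat libraries. Ctrl_RD replicate 4 and NaV1.5_RD replicate 3 shared the high pattern, so it was present in 3 of 4 Ctrl_HFD, 1 of 5 NaV1.5_HFD, 1 of 4 Ctrl_RD and 1 of 4 NaV1.5_RD libraries. Gm6969 on chromosome 12 differed in another way, at 24.1 to 31.8 CPM in all 5 NaV1.5_HFD libraries and 27.1 CPM in Ctrl_HFD replicate 1 against 1.33 to 2.3 CPM in the other 3 controls. On regular diet it split within both genotypes. It was at 20.8 and 35.4 CPM in NaV1.5_RD replicates 3 and 4 and 26.9 CPM in Ctrl_RD replicate 4, against 1.02 to 1.72 CPM in the rest. These 6 records were chosen after their values were seen, and several are pseudogenes or near-copies whose counts are uncertain. The labels give no strain, and neither a mixed strain background nor the part of these records in the differences between genotypes was tested.

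The labels were checked first. A record named flag, added to the annotation by the authors, had 0 counts in every library, so it did not mark the transgenic ones. The atrial markers Nppa, the atrial natriuretic peptide, and Myl7, the atrial regulatory light chain, were abundant in all 9 libraries, at 14690 to 18740 and 7147 to 10050 CPM. Myl2, the ventricular light chain, was at 0.993 to 8.85 CPM in 8 libraries and at 102 CPM in NaV1.5_HFD replicate 5.

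Of 16168 genes tested, 6 rose (0.0371%) and 8 fell (0.0495%) in NaV1.5 atria at an adjusted p below 0.05 by edgeR's quasi-likelihood test with Benjamini-Hochberg adjustment. Differences are log2 values, NaV1.5 against control, with their standard error (SE). DESeq2 called 93 genes (0.575%) and limma-voom 124 (0.767%). At an unadjusted p below 0.05, 686 genes were higher (4.24%) and 615 lower (3.8%). In 279 genes (1.73%) all 5 NaV1.5 libraries lay above all 4 controls and in 270 (1.67%) all lay below. The median difference over all genes was 0.005. Of the genes that passed, 13 are described here.

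Among the genes that rose, Cdh6, a cadherin that joins neighbouring cells and is known from the developing kidney, went from near absence to a clear level. Its CPM was 0.234, 0.0931, 0.302 and 0.0491 in the controls (6, 3, 5 and 1 counts) and 11.8, 8.98, 8.51, 8.14 and 10.5 in the NaV1.5 libraries. All 5 transgenic libraries lay far above all 4 controls. The rise of 5.61 (SE 0.34, edgeR adjusted p = 1.65e-08) has a loosely fixed size, since the controls hold so few counts.

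Dok5, an adaptor that docks on receptor tyrosine kinases, stood at 2.65, 2.98, 2.66 and 3.49 CPM in controls and at 6.4, 5.9, 5.23, 7.48 and 6.07 CPM in NaV1.5 atria. The lowest transgenic library was above the highest control, a rise of 1.16 (SE 0.18, edgeR adjusted p = 0.0144). Rps6ka6, which encodes the ribosomal S6 kinase RSK4, stood at 1.87, 2.42, 3.08 and 1.77 CPM in controls and at 5.72, 6.7, 5.98, 4.88 and 3.81 CPM in NaV1.5 atria. Its groups did not overlap either, and it rose by 1.15 (SE 0.22, edgeR adjusted p = 0.0473). It was the only one of 10 measured ribosomal S6 kinase genes to pass, while Rps6ka2 had a difference of 0.53 (edgeR adjusted p = 0.576).

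Abhd18 stood at 48.4, 48.3, 41.7 and 38.6 CPM in controls and at 69.2, 62.6, 64.1, 68.2 and 80.4 CPM in NaV1.5 atria. The rise of 0.58 (SE 0.10, edgeR adjusted p = 0.0288) was small beside a narrow spread in both groups. AI593442, a record without an assigned gene name on chromosome 9 (52673042 to 52679780, minus strand), lay outside the naming rule and was added after its values were seen. It stood at 0.156, 0.279, 0.302 and 0.344 CPM in controls and at 5.14, 2.9, 2.7, 5.82 and 4.82 CPM in NaV1.5 atria, a rise of 4.11 (SE 0.67, edgeR adjusted p = 0.0254). As with Cdh6, its controls held few counts.

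Among the genes that fell, Ptgds, which makes prostaglandin D2 and is abundant in heart and brain coverings, stood at 37.5, 20.1, 34.6 and 25.8 CPM in controls and at 12.9, 6.39, 5.69, 8.52 and 7.02 CPM in NaV1.5 atria. Every transgenic library was below every control, and the fall was -1.92 (SE 0.28, edgeR adjusted p = 0.0144). None of the other 15 measured genes of prostaglandin synthesis and reception passed or had an unadjusted p below 0.05. Hpgds, the other prostaglandin D2 synthase, was at 3.57 to 5.06 CPM in controls and 4.72 to 5.78 CPM in NaV1.5 atria.

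Scn10a encodes NaV1.8, a sodium channel best known from sensory neurons (GRCm38 chromosome 9, 119608456 to 119719322, minus strand). It stood at 14.1, 14.9, 12.6 and 18.3 CPM in controls and at 7.98, 4.82, 6.32, 7.58 and 5.72 CPM in NaV1.5 atria. The groups were separated by more than the spread within either, with a fall of -1.10 (SE 0.18, edgeR adjusted p = 0.0144).

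A pair of genes of cyclic GMP signalling fell. Mrvi1, whose product is a target of cyclic GMP-dependent kinase and restrains calcium release through the inositol trisphosphate receptor, stood at 51.3, 60.4, 86.5 and 54.9 CPM in controls and at 39.7, 28.5, 23.2, 30.6 and 23 CPM in NaV1.5 atria. Its fall was -1.18 (SE 0.18, edgeR adjusted p = 0.018). Gucy2e, a membrane guanylate cyclase known from the retina, was far scarcer, at 1.36, 0.9, 2.6 and 1.47 CPM in controls and 0.263, 0.402, 0.172, 0.189 and 0.251 CPM in NaV1.5 atria, with a fall of -2.58 (SE 0.49, edgeR adjusted p = 0.0473). Neither gene's groups overlapped, although the NaV1.5 levels of Gucy2e lie close to the limit that a count of 0 allows, and limma-voom put Gucy2e just outside its threshold (adjusted p = 0.0505). Of 11 measured genes of this pathway, 5 lay above 0 and 6 below, with a median of -0.09. Among those above 0 were Pde5a at 0.32 and Gucy1b1 at 0.16. Gucy1a1, a subunit of the soluble guanylate cyclase that senses nitric oxide, had a difference of -0.51. The cyclic GMP phosphodiesterase Pde9a had one of -0.40. Neither Gucy1a1 nor Pde9a passed with edgeR (adjusted p = 0.126 and 0.512), while Gucy1a1 passed with DESeq2 (adjusted p = 0.0177) and limma-voom (adjusted p = 0.0194).

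Lgals3, the galectin of macrophages and a widely used marker of cardiac fibrosis, stood at 161, 127, 174 and 219.9 CPM in controls and at 109, 88.8, 97.9, 87.4 and 79.2 CPM in NaV1.5 atria, a fall of -0.74 (SE 0.13, edgeR adjusted p = 0.0269). Of 15 measured macrophage markers, 14 had a difference above 0, with a median of 0.22. Aldh3b2, an aldehyde dehydrogenase, stood at 4.09, 5.62, 6.65 and 6.09 CPM in controls and at 2.94, 1.61, 1.03, 2.27 and 1.86 CPM in NaV1.5 atria, a fall of -1.48 (SE 0.26, edgeR adjusted p = 0.0345).

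Sbk3, a putative protein kinase gene, was the most abundant gene to pass. It stood at 929, 958, 963 and 899 CPM in controls and at 740.3, 585, 560.1, 626 and 646 CPM in NaV1.5 atria, a fall of -0.59 (SE 0.11, edgeR adjusted p = 0.0473). Sh3tc2, known for its part in myelination by Schwann cells, stood at 11.5, 13.9, 13.8 and 13.7 CPM in controls and at 8.24, 8.98, 8.91, 9.14 and 9.13 CPM in NaV1.5 atria, a fall of -0.55 (SE 0.10, edgeR adjusted p = 0.0473). In both genes the spread within the groups was small and the groups did not overlap.

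**Figure D2:**
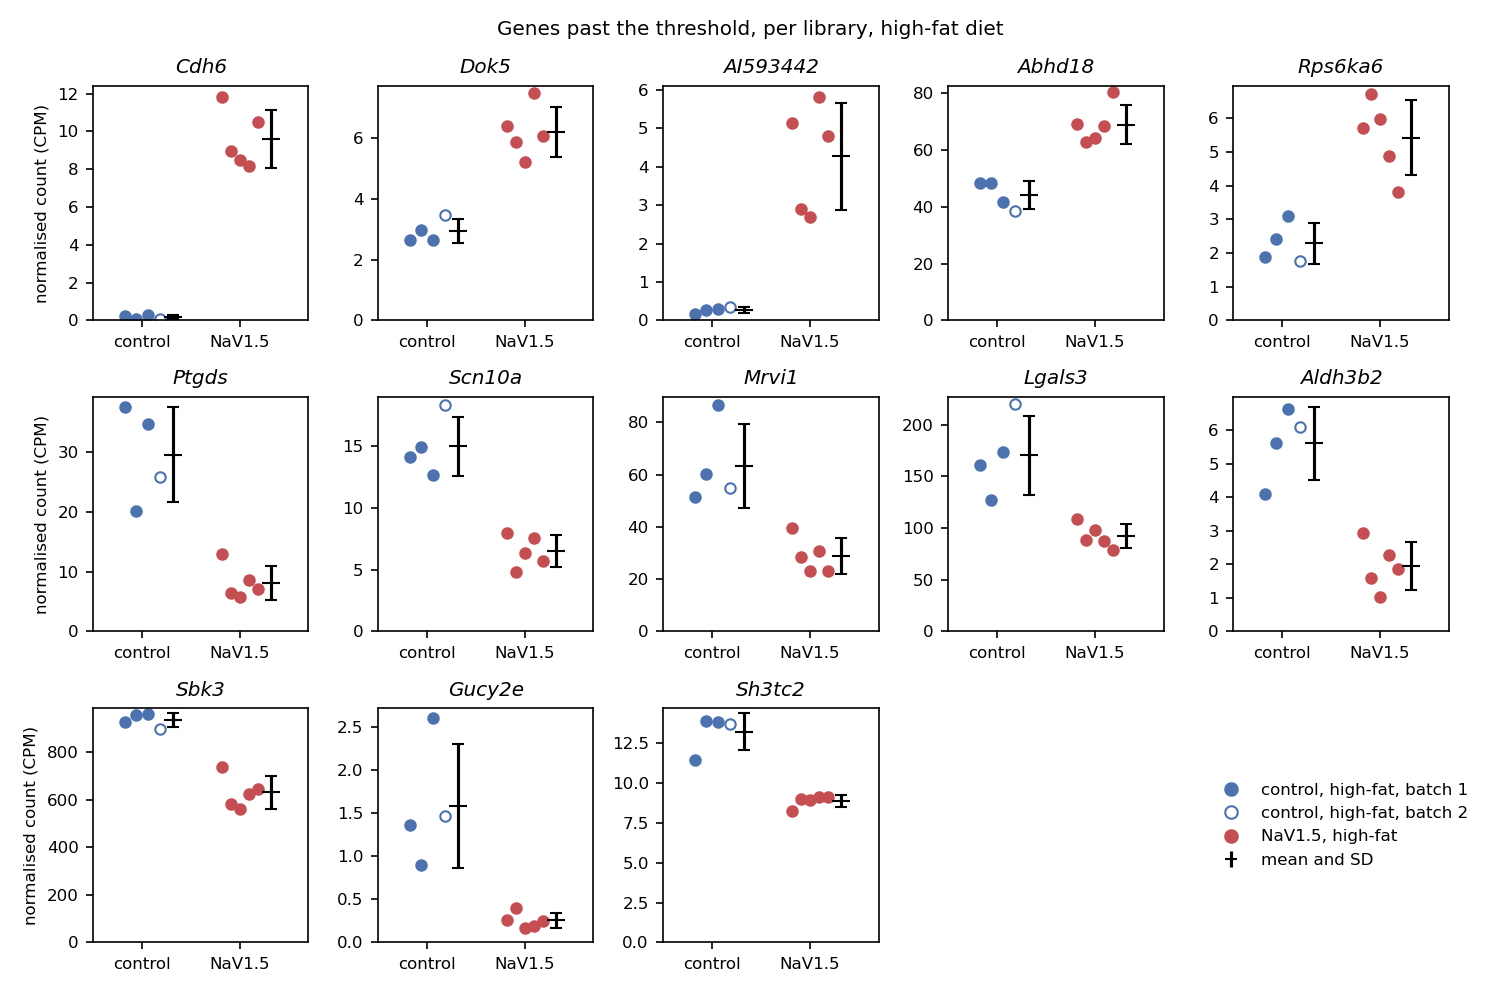
CPM of the 13 described genes past the threshold in each high-fat library, on linear axes from 0, with the mean and SD of each group; the open point is the control of batch 2. In every panel the 4 controls and the 5 NaV1.5 libraries do not overlap, from Cdh6 (at most 0.302 against at least 8.14 CPM) to Sh3tc2 (at least 11.5 against at most 9.14 CPM).

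Ctrl_HFD replicate 4 had no weight in choosing these genes. In 14 of the 14 genes that passed it lay on the control side of all 5 NaV1.5 libraries. The same held for 676 of the 1287 genes (52.53%) with an unadjusted p below 0.05 only, and for 4210 of all 16168 (26.04%), counting for each gene the side its own difference gives. NaV1.5_HFD replicate 1 was the highest of its group in 6 of the 8 genes that fell, among them Ptgds and Mrvi1, and so the nearest to the controls.

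The calls leaned on single libraries. Leaving out Ctrl_HFD replicate 4, which has no weight, lost none of the 14 genes, so the other 8 high-fat libraries are counted here. Cdh6 passed whichever of the 8 was left out. Of the 14 genes, 2 passed without Ctrl_HFD replicate 1, 6 without Ctrl_HFD replicate 2 and 2 without Ctrl_HFD replicate 3. Without NaV1.5_HFD replicates 1 to 5 in turn, 10, 7, 8, 3 and 8 of the 14 passed. With newly called genes included, there were 9 calls without Ctrl_HFD replicate 2. There were 13, 9 and 11 without NaV1.5_HFD replicates 1, 3 and 5. In the remaining fits every call was among the 14. Of the regular-diet libraries, which enter through the spread, leaving out Ctrl_RD replicate 3 gave 9 calls and NaV1.5_RD replicate 4 gave 32. Dok5, Ptgds, Scn10a and Mrvi1 each passed in 5 of the 8 such fits, and their highest adjusted p was 0.0947, 0.0947, 0.0851 and 0.12. AI593442 passed in 4, Abhd18 and Lgals3 in 2, Rps6ka6, Aldh3b2, Sbk3 and Gucy2e in 1, and Sh3tc2 in 0, with the highest adjusted p at 0.389 for Gucy2e. The sizes moved less than the calls, with Ptgds from -2.15 to -1.74 and Scn10a from -1.19 to -1.01.

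Next in rank were 16 genes that did not pass with edgeR. The higher ones were Sost, the Wnt inhibitor sclerostin, at 1.40 (adjusted p = 0.0571), Bdh1, the enzyme that oxidises the ketone body hydroxybutyrate, at 1.11, the tetraspanin Tspan2 at 0.62, Cdk1, E2f1, Cuzd1 at 3.02, Fam81a at 1.77 and Fabp4 at 0.64. Bdh1 stood at 5.03, 4.22, 3.51 and 1.87 CPM in controls and at 7.51, 7.73, 10, 10.1 and 11 CPM in NaV1.5 atria, with no overlap. The lower ones were the actin-binding gene Aif1l at -0.92 (adjusted p = 0.0593), Slc24a4, a potassium-dependent sodium-calcium exchanger, at -1.73, the leukocyte actin-binding gene Lsp1 at -0.42, Hlf, the metalloprotease Adam33 at -0.51, Ciart, the basement membrane gene Fras1 at -0.76 and the phosphoinositide phosphatase Fig4 at -0.46. Slc24a4 stood at 3.58, 2.98, 4.72 and 2.11 CPM in controls and at 1.79, 1.61, 0.805, 0.521 and 0.853 CPM in NaV1.5 atria. The groups did not overlap in 13 of these 16 genes, against 1.73% of all genes with NaV1.5 above and 1.67% with NaV1.5 below. The 16 were chosen by their small p, which by itself favours groups that do not overlap.

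The same contrast on regular diet, measured in other libraries, lay on the same side in all 13 described genes. Cdh6 was 7.24 there and Scn10a -1.25 (SE 0.17), and these passed on regular diet as well (edgeR adjusted p = 4.65e-10 and 0.00632). Gucy2e and Rps6ka6 were at -2.72 and 1.06 on regular diet, close to their high-fat values, and did not pass there. Ptgds was at -0.80, Mrvi1 at -0.57, Aldh3b2 at -0.89 and Sh3tc2 at -0.27. Whether the genotype difference changed with diet was tested as an interaction: 0 genes passed with edgeR, DESeq2 or limma-voom, and 366 (2.26%) had an unadjusted edgeR p below 0.05. Among the 13 genes the unadjusted interaction p was 0.0104 for Ptgds (-1.12), 0.0302 for Mrvi1 (-0.62) and 0.0299 for Cdh6 (-1.63). Adam33 and Ciart, next in rank on high-fat diet, were at -0.01 and -0.09 on regular diet, with interaction values of -0.50 (unadjusted p = 0.00341) and -0.63 (unadjusted p = 0.00805). These genes were chosen by their high-fat difference, which is part of the interaction. That choice alone favours larger values on high-fat diet, as in 10 of the 13, and small interaction p-values. No conclusion on diet is drawn from them.

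**Figure D3:**
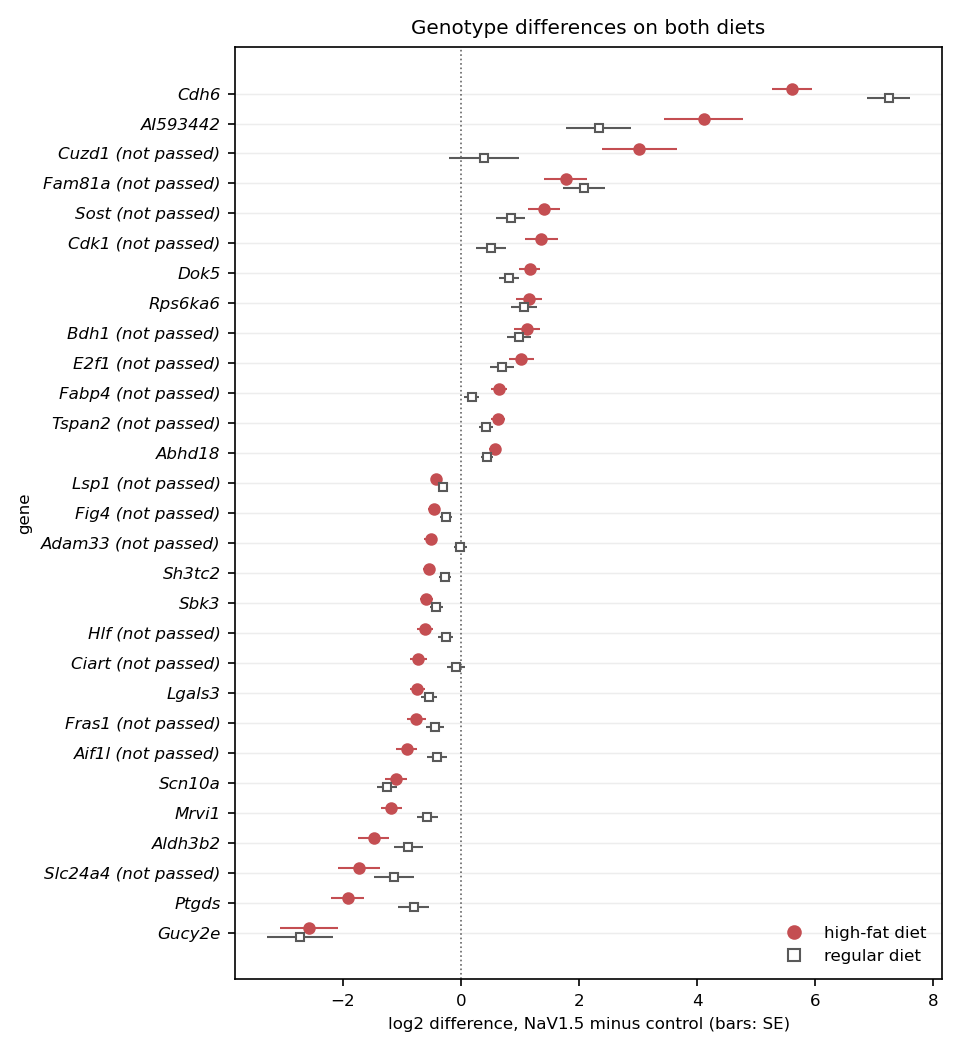
Log2 difference of NaV1.5 minus control, with SE, on high-fat diet (filled circles) and on regular diet (open squares) for the 13 described genes that passed and the 16 next in rank. Scn10a, Rps6ka6 and Gucy2e have nearly equal values on both diets, while Ptgds (-1.92 and -0.80) and Ciart (-0.72 and -0.09) lie further from 0 on high-fat diet. The genes were chosen by their high-fat difference, which by itself favours larger values on that diet.

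Gene lists are described by how many members had an unadjusted p below 0.05 and by their median, beside 4.24% higher, 3.8% lower and a median of 0.005 over all genes. Unless a call is named, no member passed with edgeR after adjustment.

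Genes of cell division stood higher in NaV1.5 atria. Of 35 measured, 33 had a difference above 0, 15 had an unadjusted p below 0.05 upward and 1 downward, and the median was 0.61. In 8 the groups did not overlap. DESeq2 called 5 of them higher, and limma-voom called 8 higher and 1 lower. Cdk1, the kinase that drives entry into mitosis, stood at 1.64, 1.49, 2.12 and 3.1 CPM in controls and at 3.25, 4.07, 3.51, 5.35 and 5.92 CPM in NaV1.5 atria, a difference of 1.36 (SE 0.28, edgeR adjusted p = 0.0771). Ccnb1, its partner cyclin B1, stood at 0.351, 0.559, 0.302 and 0.786 CPM against 0.787, 1.43, 1.09, 1.75 and 1.61 CPM, a difference of 1.67 (SE 0.36, edgeR adjusted p = 0.0842). Both were lowest in the 3 controls of batch 1, and the control of batch 2 came just under the lowest transgenic library.

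E2f1, the transcription factor that switches on genes of DNA synthesis, differed by 1.02, the proliferation marker Mki67 by 1.43 and the ribonucleotide reductase subunit Rrm2 by 0.93. In these 3 genes Ctrl_HFD replicate 4, at 3.44, 4.67 and 4.86 CPM, overlapped the lowest NaV1.5 libraries. The levels are low, so that Ccnb1 rests on few counts per library. Other genes of DNA synthesis in the list differed little, with Mcm2 to Mcm7 at 0.01 to 0.21, Rrm1 at 0.16, Pcna at 0.04 and Tyms at 0.01. The list's summed level overlapped, at 196.6 to 223.6 CPM in controls and 204.4 to 256.9 CPM in NaV1.5 atria. On regular diet the list's median was 0.26. With single high-fat libraries left out, 10 to 18 members were higher at an unadjusted p below 0.05, and the median ran from 0.54 to 0.79. Which cells divided was not measured.

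The promoters of this list are shown because such genes are known to share CCAAT boxes, bound by NF-Y, and the cell cycle homology region TTTGAA. The stretches next to the starts of Cdk1 (GRCm38.p6, chr10:69352913-69353032, minus strand) and Ccnb1 (chr13:100786487-100786606, minus strand), from RefSeq, are printed 5′ to 3′ with matches to either motif on either strand in capitals (ATTGG is CCAAT on the other strand).
Cdk1: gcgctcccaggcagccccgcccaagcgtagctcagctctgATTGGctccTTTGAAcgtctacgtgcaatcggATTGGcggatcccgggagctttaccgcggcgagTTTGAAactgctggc
Ccnb1: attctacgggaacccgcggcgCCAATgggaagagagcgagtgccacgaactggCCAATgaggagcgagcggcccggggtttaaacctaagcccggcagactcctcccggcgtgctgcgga
Cdk1 holds 2 of each motif in this stretch and Ccnb1 holds 2 CCAAT boxes. In the 250 bases before the start, CCAAT was present in 23 of the 28 list members with a promoter in the table (82.1%) and in 37.5% of all 27025 promoters. It was also present in 11 of 16 promoters of the clock genes described further on (68.8%). TTTGAA was present in 9 of 28 (32.1%) and in 18.3% of all. A match is a description of the letters and not of binding.

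Matrix genes leaned upward. Of 31 measured collagens and matrix proteins, 29 had a difference above 0, 6 had an unadjusted p below 0.05 upward and 0 downward, and the median was 0.29 against 0.12 on regular diet. Postn, or periostin, a matrix protein made by activated fibroblasts, stood at 59.1, 51.7, 52 and 57.8 CPM in controls and at 85.8, 118, 102, 98.2 and 91.3 CPM in NaV1.5 atria. Its groups were well apart, with a difference of 0.87 (SE 0.22). It did not pass with edgeR (adjusted p = 0.215) and did with DESeq2 (adjusted p = 0.00797) and limma-voom (adjusted p = 0.0371). On regular diet Postn was at 0.13.

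Col5a2, a fibrillar collagen chain, stood at 48.7, 47.8, 52.7 and 50.7 CPM against 59, 80.7, 69.7, 71.6 and 64.5 CPM, also without overlap, a difference of 0.47 (SE 0.14, edgeR adjusted p = 0.319). Thbs1 and Thbs4, thrombospondins, differed by 0.87 and 1.00 and the proteoglycan Vcan by 0.55, all with overlapping groups. Lox, which crosslinks collagen, differed by 0.74 (edgeR adjusted p = 0.279), and Mmp3, a matrix-degrading protease, by 0.89. Of 30 measured matrix enzymes and TGF-beta genes, 3 had an unadjusted p below 0.05 upward and 0 downward, with a median of 0.14.

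Of 13 markers of activated fibroblasts, 3 were higher at an unadjusted p below 0.05 and 12 lay above 0 (median 0.56), and their summed level was 311 to 364 CPM in controls and 362 to 519.7 CPM in NaV1.5 atria. Of 13 general fibroblast markers 1 was higher, with sums of 6688 to 8378 and 6032 to 8577 CPM that overlap throughout. Counts in these lists moved with single libraries. Without NaV1.5_HFD replicate 1 there were 10 collagens and matrix proteins and 5 activated fibroblast markers. There were 4 collagens and matrix proteins without Ctrl_HFD replicate 1, Ctrl_HFD replicate 2, NaV1.5_HFD replicate 2 or NaV1.5_HFD replicate 3, and 2 activated fibroblast markers without NaV1.5_HFD replicate 2 or NaV1.5_HFD replicate 3. Without Ctrl_HFD replicate 3 there were 5 activated fibroblast markers and 1 matrix enzyme.

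Genes of red blood cells were also higher, unevenly. The globin gene Hbb-bs stood at 518, 488, 395 and 581 CPM in controls and at 938, 1966, 1808, 1950.0 and 619 CPM in NaV1.5 atria. NaV1.5_HFD replicates 2 to 4 were more than 3 times the controls, and replicate 5 was just above them. Hbb-bt, a near-identical copy whose reads may be split with it, stood at 42.5, 41.3, 35.7 and 38.4 CPM against 81.9, 183, 110.5, 175 and 61.8 CPM. Of 7 measured erythroid genes 6 were higher at an unadjusted p below 0.05 (median 1.59), with summed levels of 599 to 818 CPM in controls and 892 to 2963 CPM in NaV1.5 atria. That count was 3 without Ctrl_HFD replicate 1, Ctrl_HFD replicate 2 or NaV1.5_HFD replicate 4, and 1 without Ctrl_HFD replicate 3. Their part in the cell division result was not tested.

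The sums of 12 endothelial markers, at 1877 to 2165 CPM in controls and 2289 to 2762 CPM in NaV1.5 atria, did not overlap. Of the 12, 4 were higher (median 0.27): Fabp4 by 0.64, Vwf, the von Willebrand factor, by 0.61, Ly6c1 by 0.38 and Egfl7 by 0.34. Fabp4 is counted again in the lists on fatty acids below. Without Ctrl_HFD replicate 3 that count was 2. Of 15 macrophage markers 4 were higher (median 0.22), C1qb by 0.38 and Lyz2 by 0.40, with sums of 839.5 to 1142 and 963.5 to 1241 CPM. That count was 1 if either Ctrl_HFD replicate 2 or Ctrl_HFD replicate 3 was left out, 2 for NaV1.5_HFD replicate 2 or NaV1.5_HFD replicate 4, and 8 for NaV1.5_HFD replicate 1. With no batch term, where the fourth control counts, it was 0 (median 0.19). Of 12 lymphocyte and neutrophil markers 3 were higher (median 0.51), the neutrophil genes Csf3r, S100a8 and S100a9, by 0.86 to 1.28, at levels of 1.09 to 6.37 CPM. It was 0 without Ctrl_HFD replicate 2 and 1 without NaV1.5_HFD replicate 4 or NaV1.5_HFD replicate 5. Of 8 white fat markers 6 lay below 0 (median -0.72), none of them at an unadjusted p below 0.05, and the median was 0.04 without Ctrl_HFD replicate 1. The hormone-sensitive lipase gene Lipe, also expressed outside fat, was higher by 0.35.

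**Figure D4:**
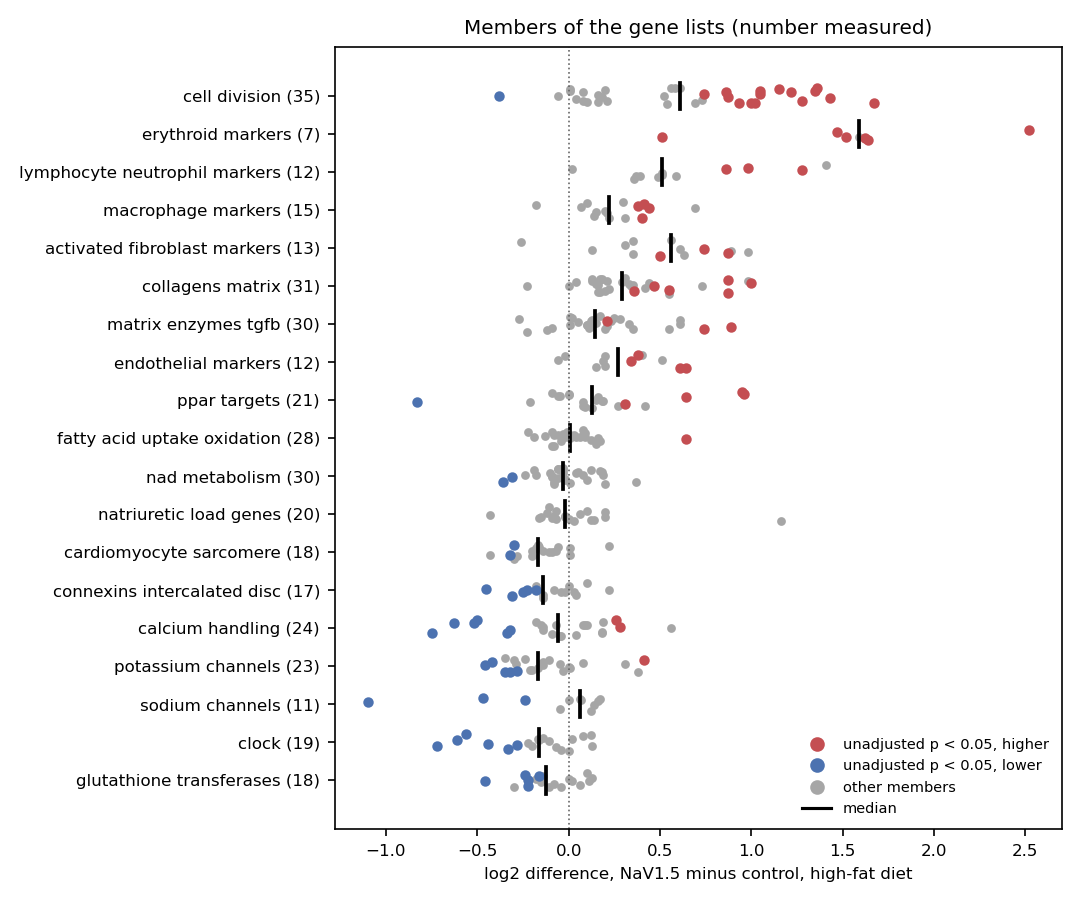
Log2 difference of each measured member of 19 gene lists (points; coloured where the unadjusted p is below 0.05) with the list's median (bar). The cell division and erythroid lists sit to the right, with medians of 0.61 and 1.59, and the clock, potassium channel and connexin lists slightly to the left, at -0.16, -0.17 and -0.14.

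Several genes that fatty acids induce through PPAR receptors, such as PPAR-alpha, were higher. Fabp4, a fatty acid carrier of endothelial and fat cells, stood at 429, 323, 361 and 441 CPM in controls and at 485, 589, 563, 615 and 642 CPM in NaV1.5 atria, without overlap (0.64, SE 0.14, edgeR adjusted p = 0.0771). Pdk4, the kinase that blocks glucose oxidation by shutting pyruvate dehydrogenase, stood at 343, 273, 197 and 184 CPM against 597, 395, 427, 635 and 583 CPM (0.96, SE 0.28, edgeR adjusted p = 0.298). Both pairs of groups were apart, and Fabp4 passed with DESeq2 (adjusted p = 0.0014) and limma-voom (adjusted p = 0.00868).

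Angptl4, a secreted inhibitor of lipoprotein lipase, differed by 0.95 and Plin2, which coats lipid droplets, by 0.31, each without overlap between groups. Ppara, the gene of PPAR-alpha, differed by -0.83, with overlap. The list of 21 measured genes holds targets and also Ppara, the receptor gene Ppard and the coactivator gene Ppargc1a. Of the 21, 4 were higher and 1, Ppara, lower at an unadjusted p below 0.05, with a median of 0.13. The same 4 genes, picked by their high-fat values, stood at 0.18, -0.30, -0.36 and 0.03 on regular diet, for Fabp4, Pdk4, Angptl4 and Plin2. Without Ctrl_HFD replicate 3, whose Angptl4 of 7.26 CPM was the lowest of all 9, 2 were higher and the median was 0.01. The 28 genes of fatty acid uptake and oxidation had a median of 0.01, with 1 higher, again Fabp4. The 42 nuclear genes of the respiratory chain had a median of 0.06, with none at an unadjusted p below 0.05.

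Several genes of the circadian clock stood lower. The clock is a loop in which ARNTL and CLOCK switch on Per, Cry and output genes through the E-box CACGTG, and the PER and CRY proteins then shut them off. Ciart, a repressor inside that loop, stood at 26.5, 22.5, 25.2 and 23.4 CPM in controls and at 13.9, 16.8, 12.7, 17.3 and 13.9 CPM in NaV1.5 atria, a difference of -0.72 (SE 0.15, edgeR adjusted p = 0.0771). Hlf, an output transcription factor, stood at 55.6, 58.3, 75.3 and 51.1 CPM against 49.8, 41.2, 40, 38.9 and 36.3 CPM (-0.61, SE 0.13, edgeR adjusted p = 0.0771). Neither overlapped, and both passed with DESeq2 (adjusted p = 0.00542 each) and limma-voom (adjusted p = 0.0304 and 0.0222).

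The related factors Tef and Dbp differed by -0.33 and -0.44, Tef without overlap, and Per1 by -0.56. Of 19 clock genes 6 were lower and 0 higher at an unadjusted p below 0.05, 4 without overlap, with a median of -0.16 against -0.09 on regular diet. With single high-fat libraries left out, 5 or 6 of the list were lower. No label gives the time of day at which tissue was taken, so a difference in sampling time and one in the clock cannot be told apart.

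The promoter of Ciart is shown for its E-boxes (RefSeq, GRCm38.p6, chr3:95882229-95882378, minus strand, 5′ to 3′, CACGTG in capitals).
Ciart: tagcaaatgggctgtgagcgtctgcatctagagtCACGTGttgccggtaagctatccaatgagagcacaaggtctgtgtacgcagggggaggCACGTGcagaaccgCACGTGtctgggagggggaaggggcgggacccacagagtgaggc
This stretch holds 3 E-boxes. CACGTG was present in the 250 bases before the start in 5 of 16 clock genes with a promoter in the table (31.2%) and in 6.9% of all 27025.

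Among ion channel genes, most members at an unadjusted p below 0.05 were lower. Of 11 measured sodium channel genes and partners 3 were lower, namely Scn10a, which passed, and Fgf13 and Fgf12, intracellular partners that tune channel inactivation. Fgf13 stood at 34.6, 37, 40.6 and 40.3 CPM in controls and at 32.8, 20.6, 22.2, 32.7 and 26.9 CPM in NaV1.5 atria, without overlap (-0.47, SE 0.14, edgeR adjusted p = 0.319). Fgf12 differed by -0.24. Over the list the median was 0.06.

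Of 23 potassium channel genes 5 were lower and 1 higher (median -0.17). The higher one was Kcnj2, the inward rectifier that holds the resting potential, at 44.8, 44.1, 31.3 and 36.2 CPM in controls and 58.4, 47.3, 49.6, 54.5 and 57 CPM in NaV1.5 atria (0.41, SE 0.11, edgeR adjusted p = 0.238). Kcnj5, a subunit of the acetylcholine-activated atrial channel, stood at 224, 245, 302 and 236 CPM against 216, 219.8, 195, 199.7 and 201 CPM (-0.32, SE 0.11, edgeR adjusted p = 0.417). Both genes' groups did not overlap. The delayed rectifier genes Kcnq1 and Kcnh2 differed by -0.42 and -0.35 with overlap, and Kcnd3, of the transient outward current, by -0.28 without.

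Of 24 calcium handling genes 6 were lower and 2 higher (median -0.06). Cacna1c and Cacna1d, the pores of the L-type calcium channels, differed by -0.50 and -0.63 and Ryr2, the calcium release channel, by -0.34, while Itpr2 differed by 0.28. Of 17 genes of connexins and the intercalated disc, which couple muscle cells, 5 were lower and 0 higher (median -0.14). These were Gja5, the atrial connexin 40, at -0.45, the desmosomal genes Pkp2 and Dsg2 at -0.25 and -0.18, and Ctnna1 and Cdh2 of the adherens junction at -0.23 and -0.31. Regular-diet values were of like size for Gja5 (-0.53) and Ryr2 (-0.28). Over whole lists the regular-diet medians were -0.08 for potassium channels and -0.04 for calcium handling. They were -0.15 for connexins and disc genes and -0.16 for sodium channel genes and partners.

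Muscle genes as a whole shared this lean: of 18 sarcomere genes 15 lay below 0 and 2 were lower, Tnnt2 at -0.30 and Myh6 at -0.32, with a median of -0.16 and summed levels of 71720 to 82390 CPM in controls and 66680 to 74860 CPM in NaV1.5 atria. Of 12 atrial muscle markers 10 lay below 0 (median -0.18). How far the share of muscle RNA enters the channel values was not tested.

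Several of the channel counts depended on Ctrl_HFD replicate 3. Without it 1 potassium channel gene and 1 calcium handling gene were lower, and 3 connexin and disc genes. The medians of these lists were then -0.07, -0.06 and -0.03, and 3 sodium channel genes and partners were still lower. A fit without Ctrl_HFD replicate 3 rests on fewer controls, which by itself favours fewer small p-values. That library also held the highest levels of sinoatrial node genes: Hcn4, the pacemaker channel, was at 16.3 CPM against 1.24 to 3.29 CPM in the other controls and 0.632 to 5.36 CPM in NaV1.5 atria, and Vsnl1 at 7.68 CPM against 1.55 to 3 CPM. Of 8 genes in the node list 3 were lower, namely Vsnl1, Cpne5 and Gja5, and the median was -0.41. Gja5 is the atrial connexin already counted among the connexins. In all, 5 of the 8 lay below 0 and 3 above. Without Ctrl_HFD replicate 3, 1 was lower (median 0.06). Without Ctrl_HFD replicate 2 or NaV1.5_HFD replicate 4, 3 connexin and disc genes were lower. The count for sarcomere genes was 0 without Ctrl_HFD replicate 2, 1 without Ctrl_HFD replicate 3, NaV1.5_HFD replicate 2 or NaV1.5_HFD replicate 3, 4 without NaV1.5_HFD replicate 5 and 5 without Ctrl_HFD replicate 1.

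**Figure D5:**
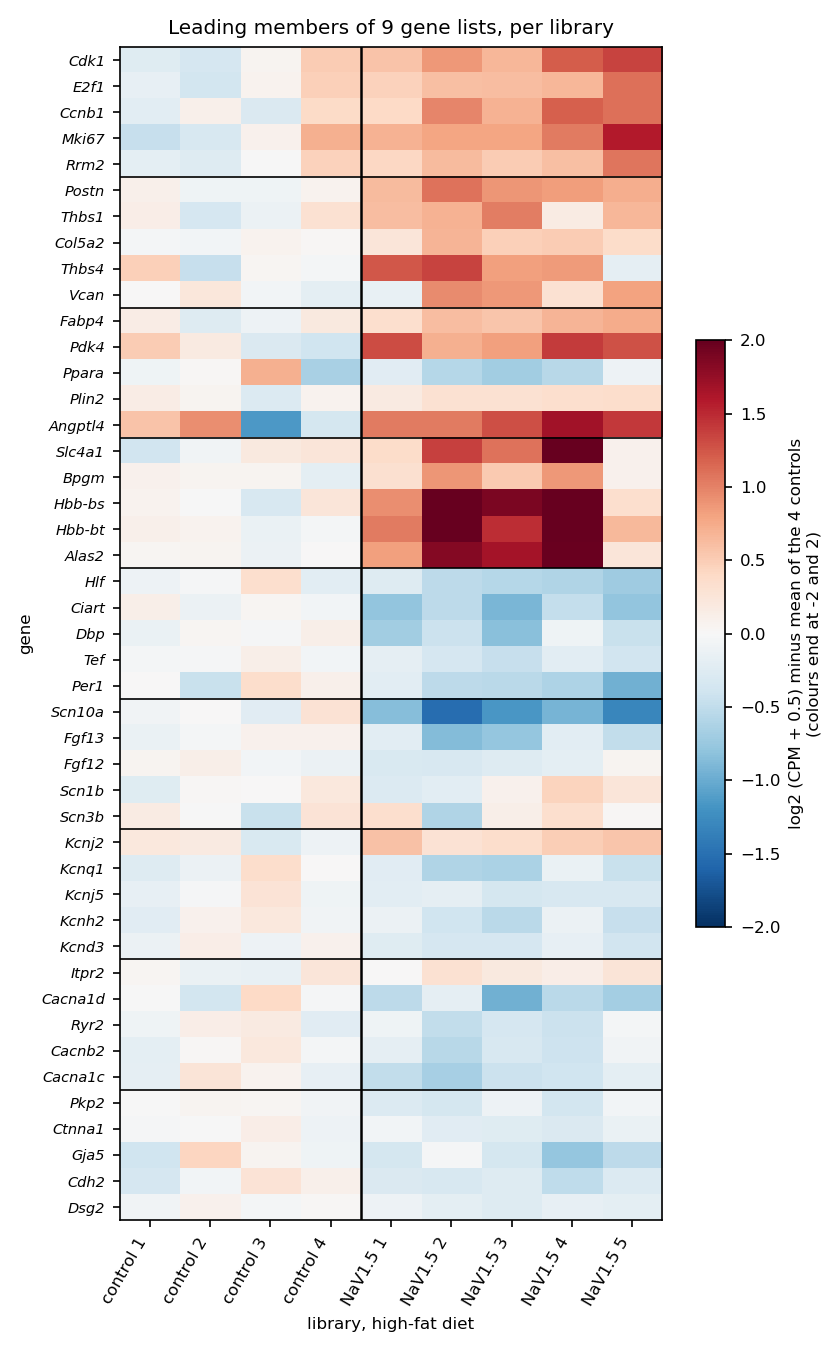
Leading members of 9 gene lists (rows, up to 5 of the smallest p each; lists separated by lines, from cell division at the top to connexins at the bottom) in the 9 high-fat libraries (columns), as log2 (CPM + 0.5) minus the mean of the 4 controls. Red marks higher and blue lower levels: control replicate 3 stands above the other controls in several channel genes (Kcnj5 at 302 CPM), and NaV1.5 replicates 2 to 4 stand highest in the globin genes.

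The 20 genes of natriuretic peptides and load had no member at an unadjusted p below 0.05 and a median of -0.02. Of 30 NAD metabolism genes 2 were lower, the NAD synthesis genes Nmnat3 at -0.31 and Nadsyn1 at -0.36, and the median was -0.03. Of 18 glutathione transferases 5 were lower, 2 of them without overlap (median -0.13), the largest by Gstm6 at -0.46, and 1 passed with limma-voom. That count was 1 without Ctrl_HFD replicate 1, 2 without Ctrl_HFD replicate 2, and 3 without NaV1.5_HFD replicate 2 or NaV1.5_HFD replicate 3; these genes are close copies, so their counts are uncertain. Of 25 heat shock genes 3 were higher (Ahsa2 by 0.33, Hsp90aa1 by 0.50 and Hsph1 by 0.64), with a median of 0.09. That count was 1 without Ctrl_HFD replicate 1, 6 without NaV1.5_HFD replicate 1 and 7 without NaV1.5_HFD replicate 4 or with no batch term. Of 7 measured genes of nerves and Schwann cells 1 was lower, Dbh, which makes noradrenaline, at -1.01, and 1 higher, the neuronal gene Uchl1 at 0.41. Neither count held throughout: that of lower genes was 0 without Ctrl_HFD replicate 1, and that of higher genes 0 without Ctrl_HFD replicate 2 or NaV1.5_HFD replicate 4.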

How the data were processed

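Polyadenylated RNA of atria was sequenced. Per the file headers, the authors counted read pairs per gene with featureCounts 2.0.1 on GRCm38 with GENCODE M25, and the deposited counts are not normalised. Counting ignored strand and dropped pairs with several alignments or several genes, so overlapping genes and near-identical copies are uncertain. FastQC 0.11.7 and STAR 2.7.6a were also used, per the submitters' processing notes.

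Counts of 17 libraries (4 Ctrl_RD, 4 Ctrl_HFD, 4 NaV1.5_RD and 5 NaV1.5_HFD) were fitted with edgeR 4.0.16 in R 4.3.3 (filterByExpr, TMM, robust quasi-likelihood F-test, 2-sided), with group and batch as terms. The p-values were adjusted by Benjamini-Hochberg over all genes kept, with a threshold of 0.05. The SE is the absolute log2 difference divided by the square root of F. The procedure was also run on simulated counts whose only group differences were planted. Those counts hold no batch or single-library patterns, so that run cannot show how stable the calls are here. The vehicle and nicotinamide riboside libraries were not used. No 2 libraries of the same high-fat group agreed within sampling noise, and other pairs were not compared.

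The comparison, lists and naming rule were chosen with earlier results of these data known. Named genes are annotated genes that passed (up to 15 per direction), the next 8 per direction, up to 5 members of each list with the smallest p, and flag, Nppa, Myl7 and Myl2. Some genes under this rule are not reported here. AI593442, H2-Ea, Gm10263, Hmga1b, Atp6v0c-ps2, Rnps1-ps and Gm6969 were added after their values were seen. Alternatives were DESeq2 size factors, other low-count filters, no batch term, high-fat libraries alone, DESeq2 1.42.0, limma-voom (limma 3.58.1), a gene length offset, a block for the replicate number and each library left out. Leaving out regular-diet libraries, and the lists under every alternative, were added after the data were seen. Python 3.11.15, pandas 2.3.3 and matplotlib 3.10.9 were used for tables and figures.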

Additional observations from a re-analysis of the deposited data

Results flagged for a closer look

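Among 196 groups of 4 or 5 libraries, 14 had 1 library far from the rest on the log2 scale, where chance gives about 1 in 20. Of the 14, 7 are in records named because libraries stood apart in them (H2-Ea, Gm10263, Hmga1b, Atp6v0c-ps2 and Gm6969). Without the 6 records named for that reason, 7 of 184 groups remain, which is no more than chance gives. NaV1.5_HFD replicate 1 holds 6 of the 14 and 2 of the 7. It was the highest of its group for H2-Ea (0.63 CPM against 0 in the others), Gm10263 (8.61 against at most 0.179), Hmga1b (5.14 against at most 0.568) and Atp6v0c-ps2 (9.76 against at most 0.615). It was the lowest for Sh3tc2 (8.24 CPM against 8.91 to 9.14) and Plin2 (41.8 against 46 to 47.4). Ctrl_HFD replicate 2 was the lowest control for Gm10263 (0.248 CPM against 7.2 to 8.69) and Hmga1b (0.373 against 6.11 to 6.39). Ctrl_HFD replicate 1 was the lowest control for Sh3tc2 (11.5 CPM against 13.7 to 13.9) and the highest for Gm6969 (27.1 against 1.33 to 2.3).

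NaV1.5_HFD replicate 5 was the highest of its group for Myl2 (102 CPM against 5.14 to 8.85) and the lowest for Vwf (133 against 247 to 280). Myl2 is a marker of ventricular muscle. NaV1.5_HFD replicate 3 was the lowest for Cuzd1 (0.172 CPM against 0.67 to 0.953), and NaV1.5_HFD replicate 4 for Cdh2 (33.5 against 38 to 39.9). What sets these libraries apart was not tested.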

How the results depend on the processing

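The calls (6 higher, 8 lower) were the same in number with DESeq2 size factors and with a stricter low-count filter (1 CPM in 4 libraries), and 6 and 7 with a gene length offset. They were 22 higher and 21 lower with no low-count filter, 17 and 14 with no batch term, 28 and 25 with the high-fat libraries of batch 1 alone, 30 and 33 with all 9 high-fat libraries alone, 49 and 44 with DESeq2, and 68 and 56 with limma-voom. At least 13 of the 14 genes were among the calls in each of these 9 fits. With 1 library left out, regular-diet libraries included, 1 to 16 were higher and 0 to 16 lower; the 16 came without NaV1.5_RD replicate 4 and the 0 without Ctrl_HFD replicate 3. The interaction had 0 calls in every fit run.

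With the replicate number as a block, in 15 libraries, 5 genes were higher and 3 lower, and 3 of the 14 were among them. Deviations of same-numbered libraries correlated at 0.142, -0.06, -0.078 and 0.145, so the numbers were not taken to pair the samples. For the 96 genes described, no alternative reversed the sign of a difference that was called. Calls themselves changed: of 2587 values under alternatives, 98 lost a call and 119 gained one. Of 1323 list medians under alternatives, 19 moved by more than their spread. Across genes the difference ran weakly with exonic length (rho -0.099, and 0.011 with the offset; genes are not independent replicates). Depth limits Cdh6, AI593442, Gucy2e, Ccnb1 and Cuzd1, whose lower group holds few counts.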
